A study of Mus musculus with 9 samples.

Results

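Amino acid transporter genes of 7 solute carrier families (Slc1, Slc3, Slc6, Slc7, Slc36, Slc38 and Slc43) were examined in RAW264.7 cells, a mouse macrophage line. The members were every protein-coding gene with a symbol of these families in the mouse annotation GENCODE M21 that the expression table lists, apart from Slc7a2 and Slc7a11, which serve as context below. This gave 49 members of 28137 listed genes. RNA-seq was performed on 9 libraries in 3 groups of 3, which had received control siRNA (NC), SFRP2 siRNA or RAB6A siRNA. By the sample descriptions, all groups were transfected with 60 nM siRNA and Lipofectamine for 6 h, kept in complete medium for 12 h, and treated with LPS, the bacterial lipopolysaccharide that activates macrophages, at 100 ng/ml for 24 h, so the controls were LPS-treated as well and no unstimulated cells were compared. The study's methods differ: for this cell line they give a lower siRNA dose, another medium and polarization with LPS and interferon-γ together, and which of them holds for these libraries is not settled by the sources. The sample titles also carry the tag 6H, and the sources do not say which step it stands for. The descriptions do not say whether the 3 libraries of a group were separate cultures or whether each SFRP2 library received another siRNA sequence, so p-values measure the spread between these libraries, which may be technical.

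Amino acids cross membranes through these carriers. Some are sodium-driven importers (Slc1, Slc6 and Slc38), some are exchangers that reach the plasma membrane only as a disulfide-linked pair with a glycoprotein heavy chain (most Slc7 members, with Slc3a2 or Slc3a1), some are uniporters (Slc43), and some work with protons or at the lysosome, where amino acid levels are reported to mTORC1 (Slc36 and Slc38). The families are named by sequence kinship, and several members carry other cargo: Slc6a4 moves serotonin, Slc6a8 creatine, Slc6a6 taurine, and Slc43a3 purine nucleobases. In activated macrophages glutamine, arginine, serine and large neutral amino acids supply protein synthesis, nitric oxide and cytokine production.

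The libraries held between 32297214 and 46544869 reads on genes, as recovered from the table. Rab6a, the target of the RAB6A siRNA, stood at 24.3, 27.3 and 25.5 FPKM (fragments per kilobase of exon, scaled to sequencing depth) in the NC libraries and at 21.2, 20.7 and 20.4 in the RAB6A siRNA libraries, which is 80.8% of NC (log2 fold change -0.31, SE 0.06, limma adjusted p = 0.0024). Sfrp2 had 2 to 4 reads in each of the 9 libraries, too few to check that target. All 10 macrophage markers examined were expressed in NC, with mean levels over the 9 libraries of 19.2 FPKM or more, and their summed level was 4794 to 5256 in NC, 4269 to 4596 in SFRP2 siRNA and 4064 to 4238 in RAB6A siRNA. The T cell markers found in the table summed to at most 0.062 FPKM in any library, the B cell markers to at most 0.335, and those of neutrophils, endothelial, epithelial and fibroblast cells to at most 1.22, 1.15, 2.83 and 3.32. With RAB6A siRNA 5 of the 10 macrophage markers were lower and 1 was higher by the limma test, as were 36.5% and 37.6% of all genes tested. Of the others, 1 neutrophil marker was lower (summed level 0.678 to 1.04 FPKM in NC and 0 to 0.229 in RAB6A siRNA), and 2 fibroblast markers and 1 endothelial marker were higher. Mitochondrially encoded genes took 9.10% to 10.7% of reads in NC, 10.2% to 12.5% in SFRP2 siRNA and 10.3% to 11.6% in RAB6A siRNA, and the 10 most abundant genes took 13.9% to 15.7%, 14.7% to 17.2% and 18.8% to 19.4%. The part of these markers and shares in the results below was not tested. In bulk RNA, fewer cells that express a gene and less of its RNA per cell cannot be told apart.

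Of the 49 members, 24 were expressed at a mean of at least 0.5 FPKM and were tested, and 25 were near absent. The tested members spanned a wide range. In NC, Slc6a12, the betaine and GABA transporter, had the highest level at 102, 84.5 and 99.7 FPKM. It was followed by Slc3a2, the heavy chain known as CD98, at 70.2, 65.9 and 71.6, and by Slc1a5, the glutamine exchanger ASCT2, at 65.9, 62.6 and 66.9. Slc6a4, the serotonin transporter, came next at 58.9, 57.6 and 64.8 FPKM, and Slc6a6 and Slc7a5 had means of 53.8 and 52.8. The lowest tested member was Slc38a9, the lysosomal arginine sensor of mTORC1, at 1.15, 1.12 and 1.11. Summed over all 49 members, the NC libraries held 624, 586 and 627 FPKM, of which Slc6 members made up 42.6% ± 0.86 (SD, n = 3). Ordering the 24 members by their NC mean gives 23 pairs of neighbours, and in 10 of these pairs the libraries overlapped. Slc3a2 and Slc1a5, Slc1a5 and Slc6a4, Slc6a6 and Slc7a5, Slc6a13 and Slc38a2, and Slc6a8 and Slc7a8 were such pairs, as were the 5 successive pairs that run from Slc36a1 through Slc6a9, Slc38a6, Slc1a4 and Slc7a7 to Slc43a2.

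**Figure D1:**
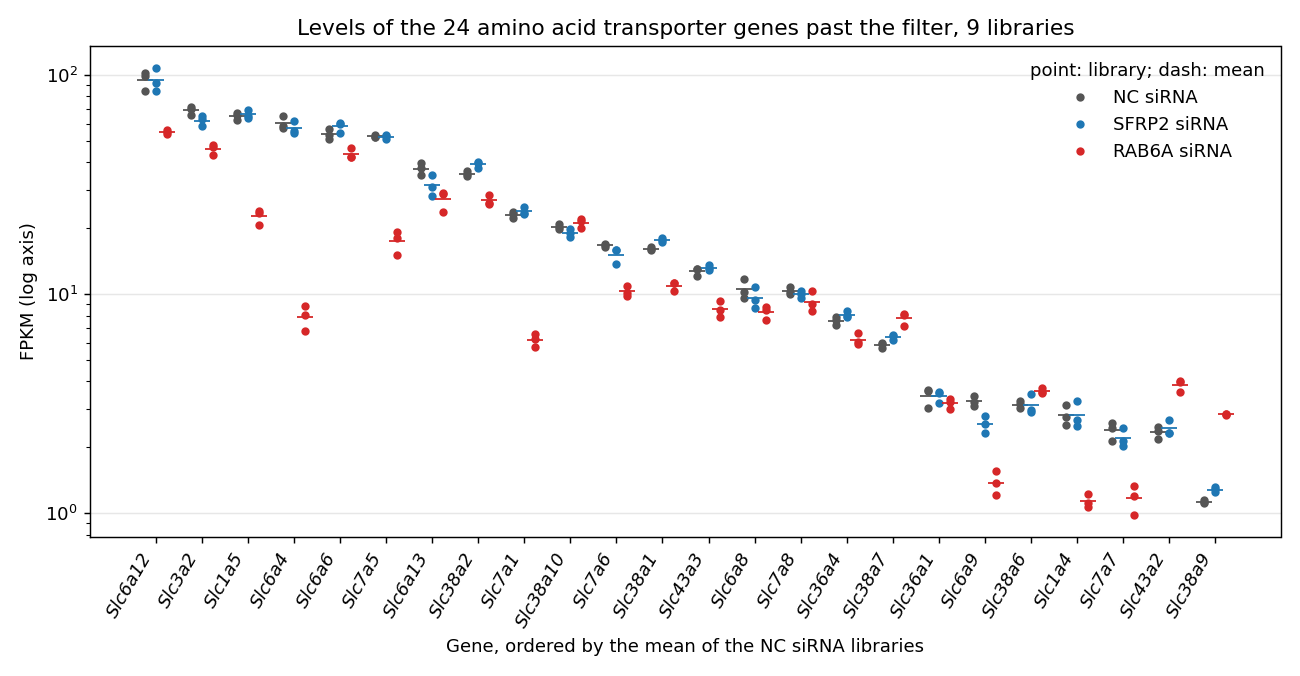
FPKM (log axis) of the 24 tested transporter genes in each of the 9 libraries, ordered by their NC mean, with 1 point per library and 1 colour per group. NC and SFRP2 siRNA points lie close together, while RAB6A siRNA points lie apart for Slc6a4 (6.79 to 8.81 against 57.6 to 64.8 in NC) and on the other side for Slc38a9 (2.81 to 2.85 against 1.11 to 1.15).

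The 25 remaining members never exceeded 0.138 FPKM or 28 reads in a library, and 20 of them stayed under 10 reads in all 9. They include the glial and neuronal glutamate transporters Slc1a1, Slc1a2 and Slc1a3, the second heavy chain Slc3a1 and the glutamine carrier Slc38a5. A count of 0 in a library allows up to 3 reads, and this limit covers counting error only, with reads taken as independent. Low members that met the naming rule numbered 4, out of the 25. Slc6a19, the neutral amino acid transporter of gut and kidney, had 20, 9 and 28 reads in NC, 17, 12 and 24 in SFRP2 siRNA, and 2, 2 and 0 in RAB6A siRNA. Slc7a14 had 6, 20 and 6 reads in NC and 4, 7 and 4 in SFRP2 siRNA but 0 in each RAB6A siRNA library. Slc7a4 went the other way, with 18, 18 and 14 reads in RAB6A siRNA against 1, 6 and 8 in NC, and 554 of its exon bases overlap P2rx6 on the opposite strand. Slc6a2, the noradrenaline transporter, had 16, 2 and 11 reads in NC and 2, 6 and 2 in RAB6A siRNA, which overlap.

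RAB6A siRNA, which targets a Golgi GTPase, was compared with NC to see which genes differ between the 2 groups. Rab6a itself stood at 80.8% of NC. An effect of less Rab6a, another effect of this siRNA and a difference between the groups of libraries cannot be told apart in this design. The summed level of the 49 members was lower, at 350, 355 and 356 FPKM, against 612 ± 22.7 (SD, n = 3) in NC. Abundant members weigh most in this sum, such as Slc6a4 (mean 60.5 FPKM in NC and 7.89 in RAB6A siRNA) and Slc1a5 (65.2 and 22.8). It therefore does not describe every member. Among the 24 tested members, 17 fell, 4 rose and 3 did not pass the test (limma on log2(FPKM + 0.1), adjusted p under 0.05 over all genes). Over all 12712 genes tested, 36.5% fell and 37.6% rose, 74.1% in all, so passing the test was common in this comparison. The median log2 fold change was -0.51 over the members and 0.03 over all genes. With a log2 fold change beyond 1 as well, 6 members were lower and 1 was higher, 29.2% of those tested, where 30.1% of all genes met that rule (12.8% lower, 17.3% higher). In 21 of 24 members the NC and RAB6A siRNA libraries did not overlap (77.4% of all genes), and each of these had an exact two-sided permutation p of 0.1, the smallest that 3 against 3 allows.

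**Figure D2:**
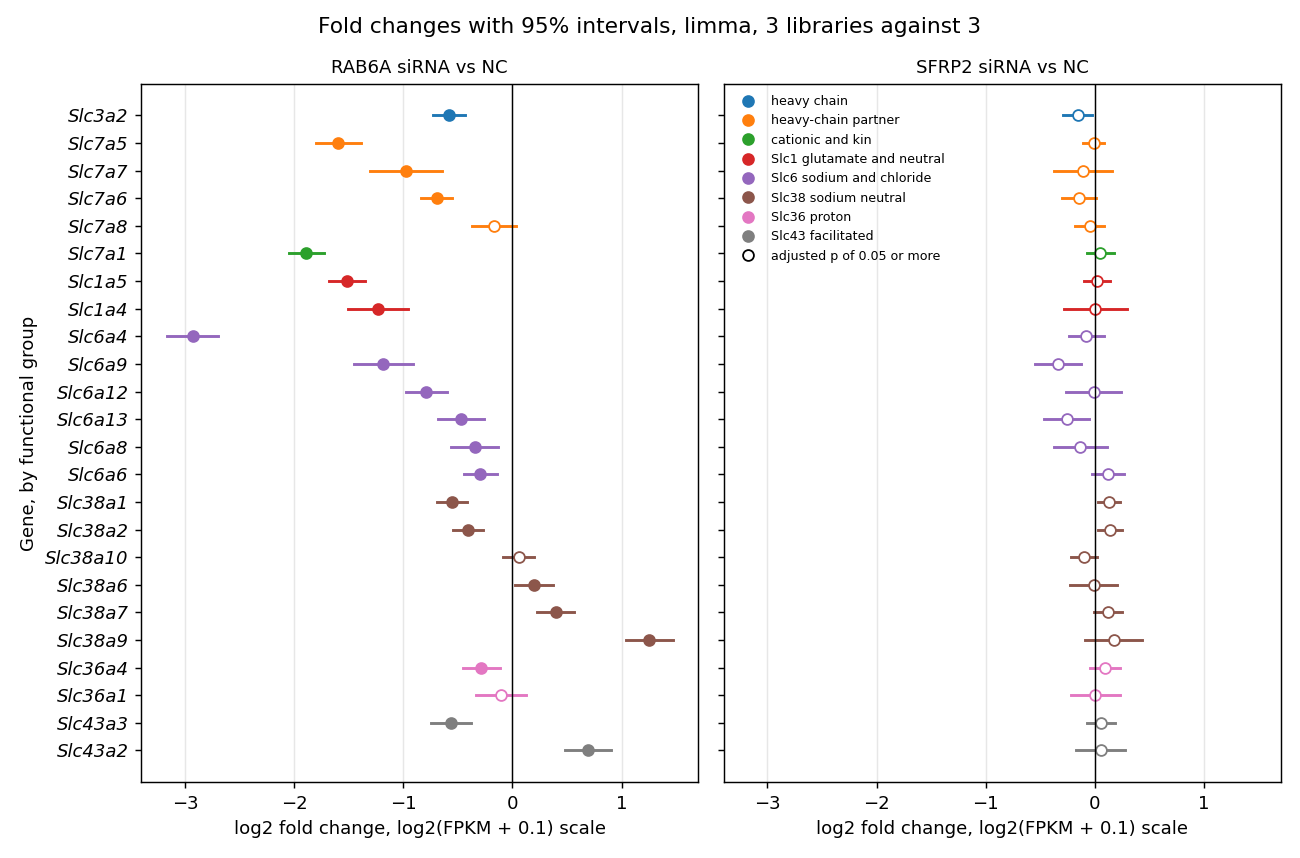
Log2 fold changes of the 24 tested transporter genes on the log2(FPKM + 0.1) scale with 95% intervals from limma, in the left and right panels for RAB6A and SFRP2 siRNA, each with 3 libraries against the 3 of NC. Filled points have an adjusted p under 0.05: 21 in the RAB6A siRNA panel, from Slc6a4 at -2.93 to Slc38a9 at 1.25, and 0 in the SFRP2 siRNA panel.

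The heavy chain and 3 of its 4 expressed partners among the members fell, by unequal amounts. Slc7a11, a further expressed partner that is not a member, is given below as context. Slc7a5, the large neutral amino acid exchanger LAT1, was at 52.3, 52.5 and 53.6 FPKM in NC and at 15.2, 18.1 and 19.2 in RAB6A siRNA, 33.1% of NC. Its log2 fold change was -1.60 (SE 0.09, limma adjusted p = 4.58e-06). The heavy chain Slc3a2, which carries Slc7a5 to the cell surface, fell less, from 70.2, 65.9 and 71.6 FPKM to 43.4, 48.2 and 46.9 (log2 fold change -0.58, SE 0.06, limma adjusted p = 9.79e-05). The level of Slc7a5 relative to Slc3a2 was 0.745, 0.797 and 0.748 in NC and 0.349, 0.375 and 0.408 in RAB6A siRNA, so every RAB6A siRNA library lay below every NC library. Slc7a7 and Slc7a6 exchange cationic for neutral amino acids with the same heavy chain. Slc7a7 fell from 2.46, 2.13 and 2.60 FPKM to 0.988, 1.33 and 1.21 (log2 fold change -0.97, SE 0.14, limma adjusted p = 0.000486), with 232 of its exon bases overlapping Oxa1l on the opposite strand, and Slc7a6 fell from 16.7 ± 0.284 to 10.3 ± 0.545 (SD, n = 3, log2 fold change -0.69). The remaining partner, Slc7a8 or LAT2, was at 10.3, 10.0 and 10.8 FPKM in NC and 9.03, 8.39 and 10.3 in RAB6A siRNA, groups that overlap (log2 fold change -0.17, 95% interval -0.37 to 0.03, limma adjusted p = 0.108). Without RAB6A siRNA replicate 3 this member passed the test at -0.25 (limma adjusted p = 0.0147). The level of Slc7a5 relative to Slc7a8 went from 5.08, 5.24 and 4.95 to 1.68, 2.15 and 1.86.

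Slc7a1, the principal cationic amino acid transporter CAT1, which brings arginine and lysine into cells, had the second-largest fall of the tested members. It was at 23.8, 22.3 and 23.3 FPKM in NC, 23.4, 23.2 and 25.1 in SFRP2 siRNA, and 5.73, 6.25 and 6.58 in RAB6A siRNA. The RAB6A siRNA libraries stood apart from the other 6, at 26.8% of NC (log2 fold change -1.89, SE 0.07, limma adjusted p = 1.34e-06). Of its relatives, Slc7a3 did not exceed 7 reads in any library, and Slc7a4 and Slc7a14 were the near-absent genes described above.

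Both expressed Slc1 members fell. Slc1a5 imports glutamine in exchange for other neutral amino acids, and it went from 65.9, 62.6 and 66.9 FPKM in NC to 20.7, 24.0 and 23.6 in RAB6A siRNA. That is 35% of NC, with a log2 fold change of -1.51 (SE 0.07, limma adjusted p = 2.6e-06). Slc1a4, the alanine, serine and cysteine transporter ASCT1, went from 2.53, 2.76 and 3.12 FPKM to 1.22, 1.11 and 1.07 (log2 fold change -1.23, SE 0.12, limma adjusted p = 5.2e-05). The level of Slc1a5 relative to Slc7a5 was 1.26, 1.19 and 1.25 in NC and 1.37, 1.33 and 1.23 in RAB6A siRNA, ranges that overlap. In the order of members Slc1a5 took place 3 in NC and place 6 in RAB6A siRNA, where it overlapped Slc38a10 in place 7.

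The 6 expressed Slc6 members were all lower, by very different amounts. Slc6a4 had the largest fall of all tested members: 58.9, 57.6 and 64.8 FPKM in NC against 8.81, 8.06 and 6.79 in RAB6A siRNA. The mean was 7.67-fold lower (log2 fold change -2.93, SE 0.10, limma adjusted p = 1.12e-06), and its place in the order of members went from 4 to 14. In the RAB6A siRNA order the libraries of 13 of the 23 neighbouring pairs overlapped, among them those of Slc6a4 with both of its neighbours, Slc6a8 and Slc38a7. Slc6a12 went from 102, 84.5 and 99.7 FPKM to 56.3, 53.9 and 55.2 (log2 fold change -0.79, SE 0.08, limma adjusted p = 7.13e-05), yet remained the member of highest level. The level of Slc6a4 relative to Slc6a12 was 0.576, 0.682 and 0.650 in NC and 0.157, 0.150 and 0.123 in RAB6A siRNA. Slc6a13, a GABA and taurine transporter, lies beside Slc6a12 on the same strand (Slc6a13 at chr6:121300227-121337733 and Slc6a12 at chr6:121343076-121365775, both + strand, GRCm38) and fell by 0.47 on the log2 scale, from 35.1, 37.8 and 39.6 FPKM to 29.0, 28.7 and 23.8. Slc6a9, the glycine transporter GlyT1, went from 3.43, 3.21 and 3.10 FPKM to 1.38, 1.21 and 1.56 (log2 fold change -1.18, SE 0.11, limma adjusted p = 5.56e-05). Of its exon sequence, 1986 bases overlap genes on the opposite strand, among them Ccdc24 and B4galt2, and whether reads were counted by strand is not given, so its reads cannot be fully told apart from theirs. The creatine transporter Slc6a8 and the taurine transporter Slc6a6 had the smallest falls of this family, by 0.35 and 0.29 on the log2 scale (limma adjusted p = 0.00996 and 0.00461). Under quantile normalization the value of Slc6a6 was -0.14 and no longer passed (limma adjusted p = 0.0912).

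The Slc38 family of sodium-coupled neutral amino acid transporters moved in both directions: 2 of its 6 expressed members fell, 3 rose and 1 did not pass the test. Slc38a2 and Slc38a1, the plasma membrane glutamine and alanine importers SNAT2 and SNAT1, lie close together on chromosome 15 (chr15:96687392-96699730 and chr15:96571418-96642913, both - strand, GRCm38). Slc38a2 went from 36.7, 34.6 and 35.4 FPKM to 28.5, 26.0 and 25.9 (log2 fold change -0.41, SE 0.06, limma adjusted p = 0.000497), and Slc38a1 from 16.4, 16.1 and 16.0 to 11.3, 10.4 and 11.2 (log2 fold change -0.55, SE 0.06). The Slc38 members known from lysosomes went up. Slc38a9 rose from 1.15, 1.12 and 1.11 FPKM to 2.84, 2.81 and 2.85, 251% of NC (log2 fold change 1.25, SE 0.09, limma adjusted p = 1.46e-05), the largest rise of the tested members. Slc38a7, a lysosomal glutamine exporter, rose from 5.99, 5.94 and 5.71 FPKM to 7.13, 8.13 and 8.08 (log2 fold change 0.40, SE 0.07, limma adjusted p = 0.00172). Slc38a6 had 3.24, 3.15 and 3.02 FPKM in NC and 3.53, 3.72 and 3.58 in RAB6A siRNA. Its log2 fold change of 0.20 had a limma adjusted p of 0.0399, which went over 0.05 when any 1 of the 6 libraries was left out (0.0608 to 0.111). Slc38a10 was at 21.04, 19.82 and 20.32 FPKM in NC and 22.06, 21.66 and 20.01 in RAB6A siRNA (log2 fold change 0.06, 95% interval -0.08 to 0.20, limma adjusted p = 0.409). Its direction was opposite, at -0.087, after the FPKM values were rescaled to an equal sum per library, and under quantile normalization it passed the test at 0.18 (limma adjusted p = 0.0271). The summed level of the Slc38 members was lower, at 75.4, 72.8 and 71.7 FPKM against 84.5, 80.7 and 81.5 in NC, but by less than that of all members. They therefore held 13.4% ± 0.39 of the summed member FPKM in NC and 20.7% ± 0.74 in RAB6A siRNA (SD, n = 3).

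The proton-coupled and uniporter families were less uniform. Slc36a1, the lysosomal proton and amino acid exporter PAT1, was at 3.61, 3.04 and 3.66 FPKM in NC and 3.32, 2.98 and 3.22 in RAB6A siRNA (log2 fold change -0.11, 95% interval -0.34 to 0.12, limma adjusted p = 0.345). The level of Slc38a9 relative to Slc36a1, with both products at the lysosome, was 0.319, 0.370 and 0.304 in NC and 0.856, 0.941 and 0.887 in RAB6A siRNA. Slc36a4 fell from 7.65, 7.87 and 7.22 FPKM to 6.07, 5.93 and 6.63 (log2 fold change -0.28, SE 0.07, limma adjusted p = 0.00777), and after a correction for GC content and exon length its value was -0.09 (limma adjusted p = 0.193). The 2 expressed Slc43 members went opposite ways. Slc43a3, which moves nucleobases, fell from 13.03, 13.02 and 12.11 FPKM to 7.89, 8.48 and 9.36 (log2 fold change -0.57, SE 0.08, limma adjusted p = 0.000357). Slc43a2, the uniporter LAT4 for large neutral amino acids, rose from 2.48, 2.18 and 2.38 FPKM to 4.02, 3.998 and 3.57 (log2 fold change 0.69, SE 0.09, limma adjusted p = 0.00027), and 922 of its exon bases overlap a gene on the opposite strand. Slc7a5 and Slc43a2 share large neutral substrates, and their levels moved in opposite directions.

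**Figure D3:**
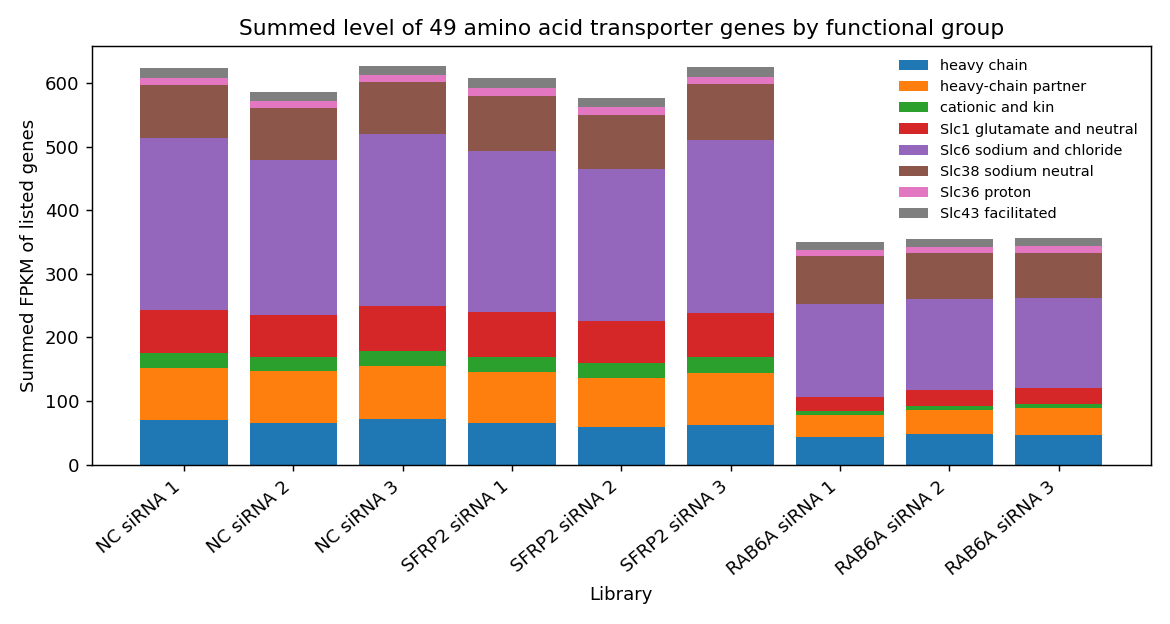
Summed FPKM of the 49 listed transporter genes in each of the 9 libraries, stacked by functional group, with the axis starting at 0. The 3 RAB6A siRNA bars stand between 350 and 356, below the 577 to 627 of the NC and SFRP2 siRNA bars.

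SFRP2 siRNA, which targets a secreted Wnt modulator, was compared with NC in the same way. None of the 24 tested members passed the test, and neither did any other gene: limma called 0% of 12017 genes, with 18.5% at an unadjusted p under 0.05. Among members the unadjusted threshold was met by 5 of 24 (20.8%), 2 higher and 3 lower, where 7.73% of all genes were higher and 10.7% lower. On recovered reads, limma with voom weights called 42 genes, and 0 of the members were among them. The paper, which used DESeq2, does report differentially expressed genes for SFRP2 siRNA in this cell line, in both directions and most of them lower. DESeq2 was not run here, and the reason for this difference was not tested. The absence of calls therefore holds for the limma test on FPKM and does not show that no gene differs. The summed member level was 607, 577 and 626 FPKM, against 624, 586 and 627 in NC. The median log2 fold change was -0.00 over the members and -0.01 over all genes.

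The 5 members under the unadjusted threshold all differed from NC by small amounts. Slc6a9 was at 2.55, 2.77 and 2.32 FPKM, below its 3 NC values of 3.10 to 3.43 (log2 fold change -0.34, 95% interval -0.55 to -0.13, limma adjusted p = 0.178). Slc6a13 was at 30.9, 28.2 and 35.2 FPKM against 35.1 to 39.6 in NC, with 1 library inside the NC range (log2 fold change -0.26, limma adjusted p = 0.211). Slc3a2 was at 64.9, 58.5 and 63.0 FPKM against 65.9 to 71.6 in NC (log2 fold change -0.16, limma adjusted p = 0.226). Slc38a1 and Slc38a2 were higher by 0.13 and 0.14 on the log2 scale (limma adjusted p = 0.208 and 0.206), with no overlap between the groups for either. Groups that did not overlap were seen for 9 of 24 members, where 24.7% of all genes showed the same, and the exact permutation p of each is 0.1. Over 11903 genes, the fold changes of this comparison went with GC content (Spearman's rho -0.498, across genes, which are not independent replicates), and over the 24 members rho was -0.44. With exon length, rho was 0.172 over these genes and 0.567 over the members. Slc38a1 and Slc38a2 have exon GC contents of 47.8% and 44.3%, and Slc6a9 and Slc3a2 of 56.7% and 54.8%. After a correction for GC content and exon length the 5 values were -0.24 for Slc6a9, -0.16 for Slc6a13, -0.05 for Slc3a2, 0.08 for Slc38a1 and 0.05 for Slc38a2. For the members that fell most with RAB6A siRNA, the intervals here were narrow: Slc7a5 at -0.01 (95% interval -0.11 to 0.08), Slc1a5 at 0.02 (-0.10 to 0.14), Slc7a1 at 0.05 (-0.07 to 0.17) and Slc6a4 at -0.08 (-0.24 to 0.08).

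The 2 siRNA groups were then compared directly, which tests whether they differ. SFRP2 siRNA libraries had higher levels than RAB6A siRNA libraries in 15 of the 24 members and lower levels in 3 (limma adjusted p under 0.05, 73.4% of all 12764 genes tested, 35.8% higher and 37.6% lower). A log2 fold change beyond 1 was reached by 6 members, 5 higher and 1 lower, where 31.1% of all genes did so (13.3% higher, 17.8% lower). These were Slc6a4 at 2.85 (SE 0.10, limma adjusted p = 2.24e-06), Slc7a1 at 1.94, Slc7a5 at 1.58, Slc1a5 at 1.54, Slc1a4 at 1.23 and, in the other direction, Slc38a9 at -1.08 (SE 0.09, limma adjusted p = 3.81e-05). This comparison shares the RAB6A siRNA libraries with the one above and is no independent evidence on them.

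Other carriers of amino acids and peptides served as context, 23 genes of a list of 24 being in the table. Of 15 tested, 10 fell with RAB6A siRNA and 3 rose, where 36.5% of all genes fell and 37.6% rose, and the median log2 fold change was -0.46. Slc7a11, which imports cystine with the heavy chain Slc3a2, was at 12.9 to 15.7 FPKM in NC and 3.59 to 3.85 in RAB6A siRNA (log2 fold change -1.88, SE 0.09, limma adjusted p = 2.97e-06). With Slc7a11 added, the level of the 4 expressed partners relative to Slc3a2 was 1.38, 1.43 and 1.35 in NC and 0.890, 0.862 and 0.968 in RAB6A siRNA. Slc7a2, the arginine transporter left out by the rule, did not exceed 0.069 FPKM. The vesicular glutamate transporter Slc17a6 had a log2 fold change of -2.85, the mitochondrial branched-chain amino acid carrier Slc25a44 of -1.16, and the lysosomal cationic amino acid exporter Pqlc2 of -1.14. The lysosomal cysteine importer Mfsd12 (0.95), the mitochondrial glycine carrier Slc25a38 (0.92) and the lysosomal sialic acid carrier Slc17a5 (0.90) rose. In SFRP2 siRNA against NC none of these 15 passed the limma test, and 4 had an unadjusted p under 0.05, against 18.5% of all genes.

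Several of these carriers, such as Slc7a5, Slc7a11, Slc3a2 and Slc38a2, are textbook targets of ATF4, the factor that raises transporter and synthesis genes when amino acids run short. A list of 26 genes of this response moved in both directions with RAB6A siRNA: of 24 tested, 14 fell, 6 rose and 4 did not pass, against the same 36.5% and 37.6% of all genes, and the median log2 fold change was -0.38. Atf4 transcripts were at 176 to 178 FPKM in NC and 170 to 187 in RAB6A siRNA (log2 fold change -0.00, SE 0.06, limma adjusted p = 0.976). The stress regulators Ddit4 (2.54), Ddit3 (1.99), Eif4ebp1 (1.24) and Nupr1 (1.19) had the largest rises on the log2 scale. Atf5 (-2.14), the glutathione-degrading enzyme Chac1 (-1.95), the serine to glycine enzyme Shmt2 (-1.36) and Stc2 (-0.89) had the largest falls. None of the 24 passed the limma test in SFRP2 siRNA against NC. There 5 (20.8%) had an unadjusted p under 0.05, all of them lower, where 10.7% of all genes were lower and 7.73% higher.

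**Figure D4:**
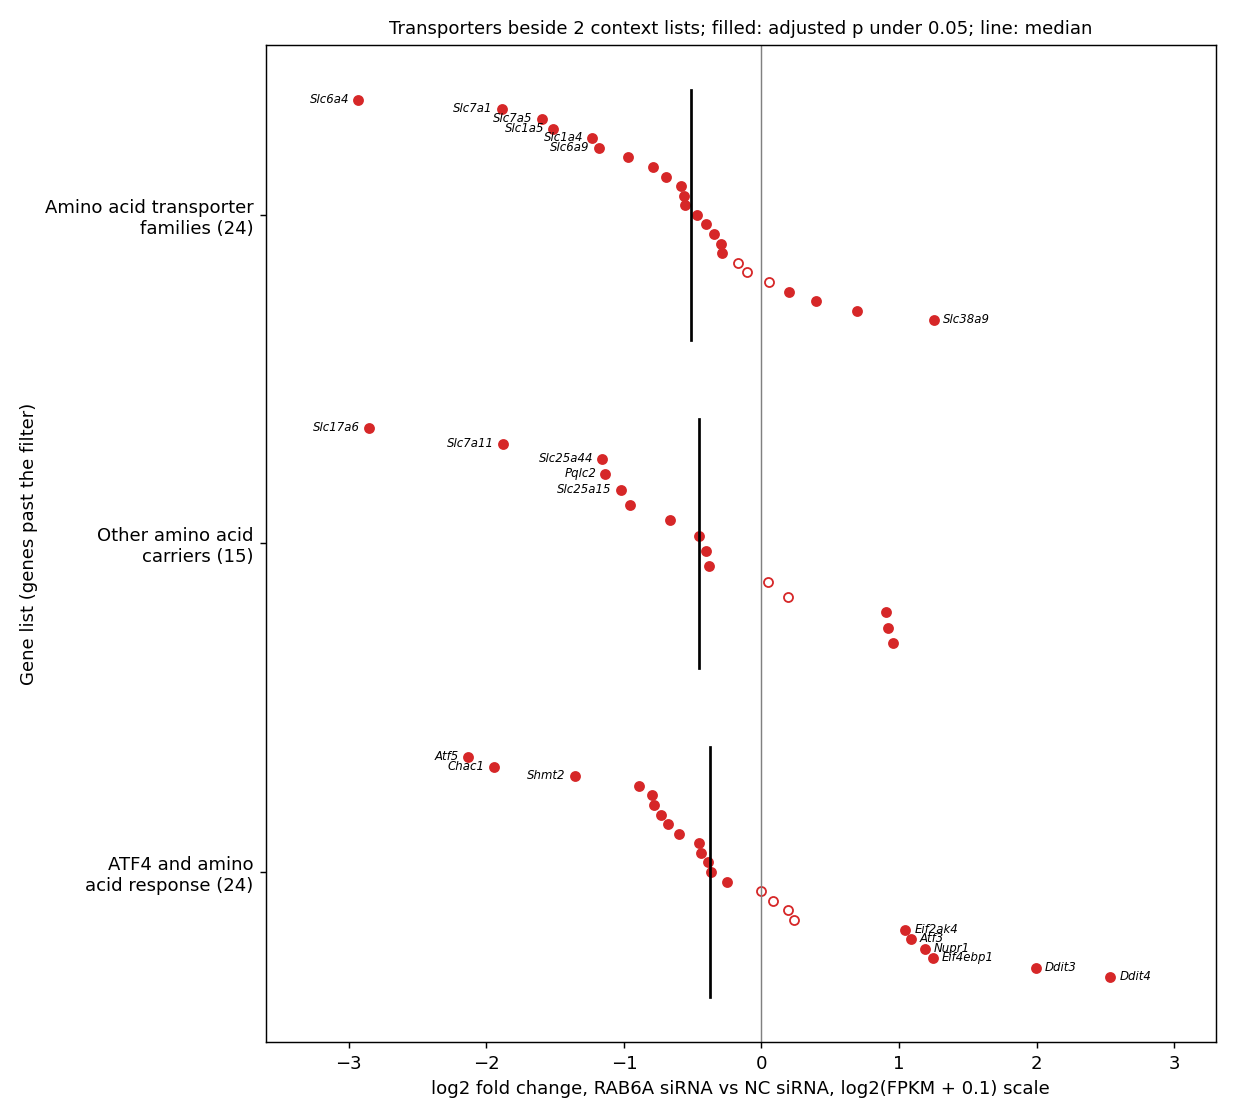
Log2 fold changes, RAB6A siRNA against NC, for the 24 tested transporter genes, 15 other amino acid carriers and 24 genes of the ATF4 and amino acid response, 1 point per gene on the log2(FPKM + 0.1) scale. Filled points have a limma adjusted p under 0.05, and the vertical line of each list is its median, at -0.51, -0.46 and -0.38; the ATF4 list spreads from -2.14 to 2.54.

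With it known that 17 of the 24 fell in the RAB6A siRNA comparison, the promoters of the tested members were searched for 2 motifs. One is tied to ATF4 and the other to TFEB, a regulator of lysosomal genes whose own level was not examined here. RefSeq promoter windows (GRCm38.p6), from 250 bases before to 50 after a gene's start, were at hand for 18 of the 24. The C/EBP-ATF response element was spelled TGATGNAA and searched on both strands. It was found in 4.51% of the 27025 genes with windows (3.97% of all 32851 windows) and, among these 18 members, in 2, Slc1a4 and Slc7a7, which both fell. The windows of Slc3a2 and Slc38a2, named above as ATF4 targets, were searched and held no match, and both of these genes fell too. Most of the 18 searched members fell, so a fall was the usual outcome, and a link between motif and fall was not tested. The E-box CACGTG, the core of the lysosomal gene element read by TFEB, was found in 8.09% of the genes (7.15% of the windows). Of the 36 members with a window, tested or not, 7 held it, most of them near absent. Among the 18 tested members it was found in 2, in Slc38a7, which rose, and in Slc36a1, which did not pass the test. The stretches that hold them are shown 5′ to 3′ on the gene's own strand, with the matches in capitals: Slc1a4 from chr11:20332694-20332747 (- strand), Slc7a7 from chr14:54417925-54418115 (- strand), Slc38a7 from chr8:95853490-95853555 (- strand) and Slc36a1 from chr11:55204279-55204359 (+ strand).
Slc1a4: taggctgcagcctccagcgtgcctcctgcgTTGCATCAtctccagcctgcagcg
Slc7a7: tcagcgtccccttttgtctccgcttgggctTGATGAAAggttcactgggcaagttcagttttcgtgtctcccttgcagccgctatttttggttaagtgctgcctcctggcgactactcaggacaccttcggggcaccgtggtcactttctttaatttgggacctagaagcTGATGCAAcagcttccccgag
Slc38a7: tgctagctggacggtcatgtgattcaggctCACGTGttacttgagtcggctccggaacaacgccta
Slc36a1: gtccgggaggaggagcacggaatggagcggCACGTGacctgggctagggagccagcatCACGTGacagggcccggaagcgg
Distances here are from the RefSeq start of the window shown. In Slc1a4 the match is on the opposite strand and starts 4 bases before the gene's start, and Slc7a7 holds 2 matches, 141 bases and 1 base before it. Slc36a1 holds CACGTG at 31 and 3 bases before its start, and Slc38a7 at 34. Starts differ between annotations: Slc7a7 has a further RefSeq start, from which the nearer of its matches is 243 bases away, and the GENCODE start of Slc38a7, at position 95853539 of chromosome 8, places its match inside the gene. A match of this kind describes the sequence and is not a shown binding site, and the members without a window (Slc1a5, Slc38a1, Slc43a3, Slc6a6, Slc6a8 and Slc7a5) were not searched.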

How the data were processed

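RNA of 9 RAW264.7 libraries was sequenced as paired-end mRNA-seq. Per the labels, the authors used HISAT2, featureCounts and Subread and deposited a table of FPKM per Ensembl gene. The genome build, annotation and tool versions are not given in the sources used here. Gene names, positions, exon lengths and GC content were taken from GENCODE M21 (GRCm38), which named 27533 of 28137 genes. Multiplying FPKM by exon length gave whole reads (within 0.03, in all libraries) for 98.4% of named genes and all 49 members, from which depths and reads were taken. Many low read numbers are even, so the mates of a pair may have been counted separately.

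Values were tested as log2(FPKM + 0.1), because the deposited FPKM values are not counts, with limma 3.58.1 in R 4.3.3 (lmFit, eBayes with an intensity trend) on genes with a mean of at least 0.5 FPKM in the 6 libraries compared, and p-values were adjusted by Benjamini-Hochberg over all genes tested. A fold change on this scale understates the change of low genes. DEGs, as in the study, have an adjusted p under 0.05 and a log2 fold change beyond 1. The study's DESeq2 was not run. Exact two-sided permutation tests used scipy 1.17.1. Every tested member is named. Low members are named with at least 10 reads in 3 libraries or more, or with all libraries of a group above 0 and another group at 0. Context genes are the up to 4 called genes of largest change in each direction, with Slc7a2, Slc7a11 and Atf4. Members and lists were chosen with earlier results of these data known. On data simulated from the RAB6A siRNA and NC libraries, 162 of 195 genes changed by 1 to 2 on the log2 scale were called, and 0 of 198 changed by 0.25. Few genes were changed in these simulations (195 of 12005 tested in the first), while 74.1% passed in the real comparison. The adjusted threshold was therefore stricter in the simulations, and these shares do not measure how often real changes of that size were called. The alternatives were 19 settings per comparison.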

Additional observations from a re-analysis of the deposited data

How the results depend on the processing

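Each value was recomputed under 19 alternatives: pseudocounts of 1 and 0.01, no filter and a minimum mean of 1 FPKM, 3 other scalings, eBayes without trend, the replicate block, all 9 libraries in a single fit, voom on recovered reads, GC and length correction with and without the block, and leaving out each library. In RAB6A siRNA against NC, 20 to 23 members passed, and 20 to 21 when a library was left out, against 21. DEGs among members numbered 7 to 8 (7 to 8 when a library was left out), except 4 with a pseudocount of 1, where Slc1a4, Slc38a9 and Slc6a9 were below the fold limit, since this pseudocount shrinks the change of low genes. Without a filter, Slc1a3, Slc6a19 and Slc7a4 passed too. In SFRP2 siRNA against NC 0 members passed in all 19, and in SFRP2 siRNA against RAB6A siRNA 18 to 21 passed, with 4 to 7 DEGs. Of the member fold changes with RAB6A siRNA, 433 of the recomputed values kept direction and side of the threshold, 15 lost and 3 gained the call, and 5 changed sign. The sign changes were Slc7a8 at 0.00066 under GC and length correction, and Slc38a10 at -0.087 under rescaling to an equal sum and -0.021 under GC and length correction, with the same values when the block was added. Neither passed the test there, and the cause was not tested. Calls that held but moved by over 1.5 times were Slc43a3 (-0.35) and Slc38a2 (-0.25) under GC and length correction, Slc6a13 (-0.31) and Slc38a2 (-0.25) under quantile normalization, Slc38a7 (0.26) and Slc36a4 (-0.43) under rescaling to an equal sum, Slc38a6 (0.37) under GC and length correction, and Slc7a7 (-0.64) with a pseudocount of 1. Slc38a6 kept its call in 7 of 19 alternatives (limma adjusted p from 0.0021 to 0.553). Slc7a8 passed in 2 of 19 (0.0147 to 0.995), Slc38a10 in 1 of 19 (0.0271 to 0.864), Slc36a4 in 17 of 19 (0.0021 to 0.272) and Slc6a6 in 18 of 19 (0.00128 to 0.0912).

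Whether replicate numbers pair the libraries is not settled here. Deviations from the group means correlated by -0.01 on average for the same number (-0.08 to 0.05, n = 9) and 0.01 for different numbers. In SFRP2 siRNA against NC, 2988 genes had an unadjusted p under 0.05 with the replicate block and 2220 without it. The smallest limma adjusted p was 0.0529 with the block and 0.140 without it. With the replicate block 20 members passed and 7 were DEGs in RAB6A siRNA against NC, Slc38a6 being lost (limma adjusted p = 0.0879). Over all genes, voom on recovered reads called 9501 in RAB6A siRNA against NC, against 9418, and 42 in SFRP2 siRNA against NC, against 0. With 3 libraries a group, 64 of 197 genes changed by 0.5 on the log2 scale were called in data simulated from the RAB6A siRNA and NC libraries. Few genes were changed there (197 of 12004 tested), so this share does not measure the calls in the real comparison.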
